A study of Homo sapiens with 3 samples.

Results

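The genes described here belong to the defense of mucosal surfaces: LYZ, LCN2, PIGR, SLPI, PI3, REG4, NOS2, DUOX2, DUOXA2 and DEFB1. The 10 genes were chosen by name, with earlier results of these data known, and looked up among the transcript clusters of an exon array, each cluster being the set of probes that the array summarises as 1 transcription unit. Of the 10 genes, 7 had a cluster annotated with their symbol alone, out of 14410 genes in the whole table that had one. REG4 shared its only cluster with the symbol NBPF7P, DUOX2 and DUOX1 were listed together on 2 clusters, and DUOXA2 was not analysed here because no cluster in the annotation used carried its symbol.

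Total RNA was measured from 3 human cell lines with 1 array each. HT-29, a colon adenocarcinoma line grown in McCoy's 5A medium with serum, had received interferon gamma (IFN-γ), a cytokine that switches on antimicrobial and antigen presentation genes, for 24 h at 200 U/ml, and is called treated HT-29 below. MDA-MB-436 is a breast adenocarcinoma line that was grown in L-15 medium with serum. MCF10A is a mammary epithelial line that was grown in DMEM/F12 with horse serum, insulin, hydrocortisone, cholera toxin and epidermal growth factor, and IFN-γ is not named for the mammary cultures. No untreated HT-29 cells were analysed here, so where HT-29 differs from the mammary lines the effects of cell line, medium and cytokine cannot be told apart. Each group was 1 established line on 1 array, so there was no replicate spread, no test or p-value was possible, and each value below describes that array alone.

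Epithelia that face microbes secrete a layered defense. Lysozyme, encoded by LYZ, cuts the peptidoglycan of bacterial walls, and lipocalin 2, encoded by LCN2, binds the siderophores with which bacteria take up iron. The polymeric immunoglobulin receptor, encoded by PIGR, carries polymeric IgA and IgM from the basal to the luminal side of the epithelial cell. SLPI and elafin, the product of PI3, inhibit neutrophil proteases, DEFB1 encodes a beta-defensin, REG4 a secreted C-type lectin, NOS2 the inducible nitric oxide synthase, and DUOX2 with its maturation factor DUOXA2 an oxidase that releases hydrogen peroxide at the apical surface.

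The promoters of LCN2 and PIGR are shown first, because both genes had higher values in treated HT-29 cells than in the mammary lines and both were in the RefSeq promoter table (GRCh38.p14). Among the other members with a cluster of their own, LYZ, SLPI, PI3 and NOS2 had no entry there. The capitals mark matches to 6 short motifs searched on both strands in the window from 250 bases before to 50 bases after the start. The sequences run 5′ to 3′ and cover the 250 bases before the start, followed for PIGR by the first 30 transcribed bases.
LCN2, chr9:128149203-128149452, plus strand: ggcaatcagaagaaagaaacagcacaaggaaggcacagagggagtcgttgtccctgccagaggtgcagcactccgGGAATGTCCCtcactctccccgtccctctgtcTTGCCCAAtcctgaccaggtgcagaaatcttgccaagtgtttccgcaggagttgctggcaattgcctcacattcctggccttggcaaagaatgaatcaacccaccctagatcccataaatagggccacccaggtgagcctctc
PIGR, chr1:206946467-206946716, minus strand: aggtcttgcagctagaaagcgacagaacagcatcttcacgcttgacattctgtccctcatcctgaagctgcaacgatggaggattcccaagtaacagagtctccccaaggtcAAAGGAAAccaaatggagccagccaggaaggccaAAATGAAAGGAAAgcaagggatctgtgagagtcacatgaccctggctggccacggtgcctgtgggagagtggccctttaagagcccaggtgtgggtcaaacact
PIGR, from the start of the transcript, chr1:206946437-206946466, minus strand: gagcagagTTTCAGTTttggcagcagcgtc

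In the LCN2 window the first capitals, GGAATGTCCC, match the NF-kappaB consensus on the opposite strand and the second, TTGCCCAA, match TTGCNNAA, a form of the site bound by C/EBP factors. Of all 35116 promoters in the table, 11.3% held the first motif and 10.5% the second. The PIGR window held 4 matches to AANNGAAA, a core of the sites bound by interferon regulatory factors, 2 of which overlap each other and 1 of which lies after the start on the opposite strand. That core was added to the search after the PIGR window had been seen, and 22.8% of all promoters held at least 1 match. The share with 4 matches was not computed. The windows of LCN2, REG4, DUOX2 and DUOXA2 were also searched and had 0 matches to it. The letters TTCNNNGAA, the gamma activated site, a core of the interferon stimulated response element made of 2 GAAA blocks with 2 bases between them, and TATAAA, the TATA box, had 0 matches in either window and were held by 7.66%, 3.57% and 11.5% of all promoters. A match is a description of the letters, and factor binding was not measured.

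Values are deposited intensities on a linear scale. Olfactory receptor genes, whose expression is largely limited to the olfactory epithelium, served as the background: the 95th percentile of the intensities of 235 such genes over the 3 arrays was 29.9, their median 6.0 and their highest value 101. Where the dimmer array was under 29.9, the fold was computed against 29.9 and is written as "at least", and no fold is given where both arrays were under it. A gene was counted as past 4-fold when its measured log2 difference was at least 2 and the brighter array was above background, so that the bound of a counted gene can be under 4-fold. Above background lay 9600 genes (66.6%) in treated HT-29 cells, 9912 (68.8%) in MDA-MB-436 and 9362 (65.0%) in MCF10A. Of 12 measured colon epithelium markers, 11 were above background in treated HT-29 cells, with CDH17 under it, all 6 markers of a mesenchymal-type breast line were above it in MDA-MB-436, and all 5 measured basal mammary markers in MCF10A. These markers were not limited to those lines: 6 colon markers were above background in MDA-MB-436 and 5 in MCF10A, 1 and 5 mesenchymal-type markers in treated HT-29 cells and MCF10A, and 2 and 1 basal markers in treated HT-29 cells and MDA-MB-436.

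LYZ, LCN2 and PIGR were the members with higher values in treated HT-29 cells than in both mammary lines. SLPI and PI3 had their highest values in MCF10A, and NOS2 and DEFB1 stayed under background on all 3 arrays. Against MDA-MB-436, 3 of the 7 measured members were past 4-fold higher in treated HT-29 cells and 0 lower. Of all genes, 4.21% were higher and 4.69% lower. Against MCF10A, 3 were past 4-fold higher in treated HT-29 cells and 2 lower, where 4.34% of all genes were higher and 3.5% lower. The same 3, LYZ, LCN2 and PIGR, were higher in both comparisons, which share the HT-29 array, as were 2.46% of all genes. In MDA-MB-436 against MCF10A, 1 was higher and 1 lower, where 3.66% of all genes were higher and 2.01% lower. With values under background set to it, 308 genes in place of 527 were higher and 245 in place of 290 lower in that comparison, and the counts of members were as before. The median log2 difference of the 7 members was 0.34, 0.21 and -0.13 in these 3 comparisons, against 0.076, 0.11 and 0.018 over all genes, with members on both sides of 0. The comparisons share arrays, so their counts are not separate observations.

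**Figure D1:**
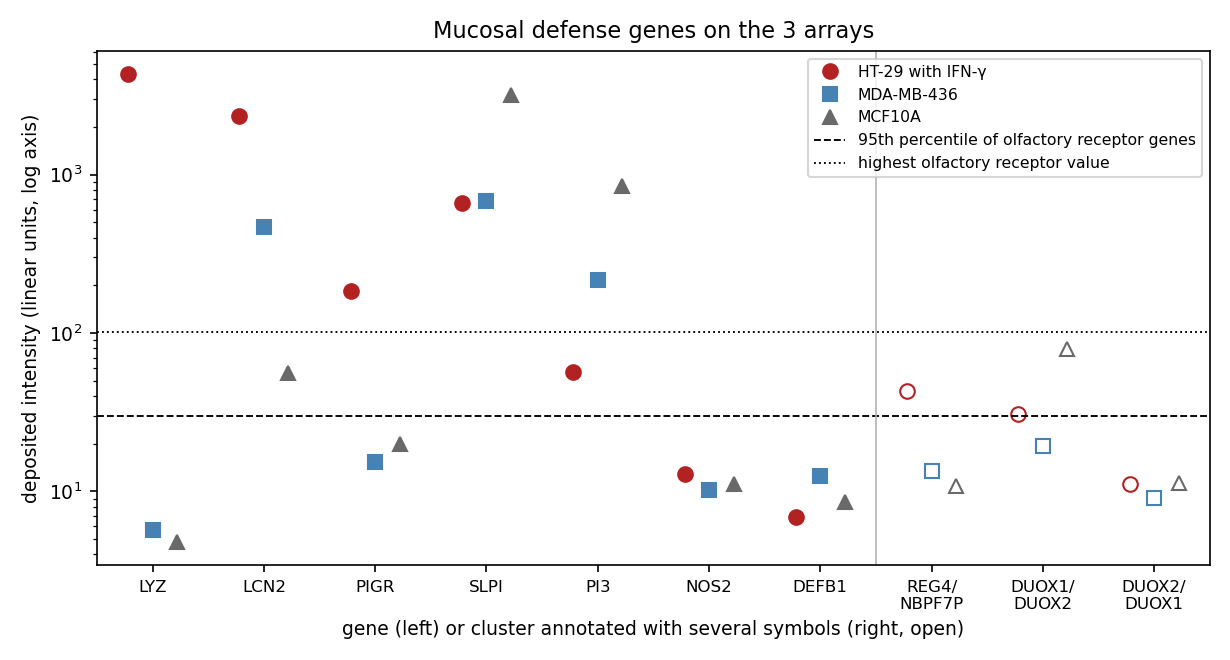
Deposited intensity (linear units on a log axis) of the 7 members with a cluster of their own (filled) and of the 3 clusters annotated with several symbols (open) on the arrays of treated HT-29 cells, MDA-MB-436 and MCF10A, 1 point per array with no error. The dashed line is the background of 29.9 and the dotted line the highest olfactory receptor value of 101. LYZ stands at 4319.6 in treated HT-29 cells and under the dashed line in both mammary lines, while SLPI and PI3 are highest in MCF10A.

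LYZ was at 4319.6 in treated HT-29 cells, 5.70 in MDA-MB-436 and 4.82 in MCF10A. Both mammary values were near the olfactory receptor median, so LYZ was at least 145-fold higher in treated HT-29 cells than in either mammary line. With values under background set to the background, no other of the 14410 genes reached a difference as large on the side of treated HT-29 cells, in either comparison. All 5 other measured genes of the lysozyme family were under background on all 3 arrays, as were 25.7% of all genes. Among them LYZL4 was at 10.03, 7.88 and 6.99 in treated HT-29 cells, MDA-MB-436 and MCF10A. In RNA from bulk cultures, fewer cells that express a gene and less RNA per cell cannot be told apart.

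LCN2 was at 2348 in treated HT-29 cells, 468 in MDA-MB-436 and 56.1 in MCF10A. It was 5.02-fold higher in treated HT-29 cells than in MDA-MB-436, 41.8-fold higher in treated HT-29 cells than in MCF10A and 8.34-fold higher in MDA-MB-436 cells than in MCF10A. Of the 7 members it alone was past 4-fold in all 3 comparisons, as were 0.52% of all genes. The MCF10A value lay above the background but under the highest olfactory receptor value, so the folds against MCF10A are close to bounds. The difference between treated HT-29 cells and MDA-MB-436 was shared by more genes, with 392 genes at least as far apart in that direction, LCN2 included, against 32 for treated HT-29 cells over MCF10A.

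PIGR was at 185 in treated HT-29 cells, 15.3 in MDA-MB-436 and 19.8 in MCF10A. It was thus at least 6.21-fold higher in treated HT-29 cells than in either mammary line, and both mammary values were under background. LYZ and PIGR were the 2 members above background in treated HT-29 cells and under it in both mammary lines, a pattern held by 2.79% of all genes. Of the genes for immunoglobulin handling, JCHAIN, which encodes the chain that joins polymeric IgA, was at 5.40 in treated HT-29 cells, 6.95 in MDA-MB-436 and 2.55 in MCF10A, under background on every array. TRIM21, a cytosolic antibody receptor, was at 659, 122 and 118, 5.39-fold and 5.57-fold higher in treated HT-29 cells than in MDA-MB-436 and MCF10A. The other 4 of the 5 measured genes on that list were under background on all 3 arrays, as were 25.7% of all genes.

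SLPI was at 659.8 in treated HT-29 cells, 687 in MDA-MB-436 and 3193 in MCF10A. It was 4.84-fold lower in treated HT-29 cells and 4.65-fold lower in MDA-MB-436 cells than in MCF10A, and lay well above background on every array. Of the 7 members it alone was past 4-fold lower in both cancer lines than in MCF10A, as were 0.881% of all genes. That holds for the values as deposited: after quantile normalization SLPI was at -1.94 in MDA-MB-436 minus MCF10A, short of 4-fold, and with median centring PI3 joined it at -2.07. Between treated HT-29 cells and MDA-MB-436 the log2 difference was -0.058, and its sign turned to 0.037 with median centring, so no order is given for those arrays.

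PI3 was at 57.1 in treated HT-29 cells, 218 in MDA-MB-436 and 845 in MCF10A. It was 14.8-fold lower in treated HT-29 cells than in MCF10A. It was 3.82-fold lower in treated HT-29 cells than in MDA-MB-436 and 3.88-fold lower in MDA-MB-436 cells than in MCF10A, both just short of 4-fold. The order of PI3 over the 3 lines was the opposite of that of LCN2. The HT-29 value was under the highest olfactory receptor value of 101.

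SLPI and PI3 lie near each other on chromosome 20, in a stretch of genes for small protease inhibitors with the whey acidic protein (WAP) fold. In the gene order of GRCh38.p14, used only for which protein-coding genes neighbour each other, PI3 is flanked by WFDC5 and WFDC12 on one side and by the semenogelin genes SEMG1 and SEMG2 on the other, which lie between PI3 and SLPI. WFDC12, the nearest neighbour of PI3 on one side, was at 20.3 in treated HT-29 cells, 18.3 in MDA-MB-436 and 49.2 in MCF10A, above background in MCF10A alone. WFDC5, SEMG1 and SEMG2 were under background on all 3 arrays. MATN4, beyond SLPI, was at 28.6, 28.0 and 30.4, close to the background on each array.

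NOS2 was at 12.9 in treated HT-29 cells, 10.1 in MDA-MB-436 and 11.1 in MCF10A. DEFB1 was at 6.88 in treated HT-29 cells, 12.4 in MDA-MB-436 and 8.53 in MCF10A. All 6 values were under background, as were those of 25.7% of all genes on all 3 arrays, and no fold is given. Their largest log2 difference, -0.86 for DEFB1 in treated HT-29 minus MDA-MB-436, lay inside the range of -1.36 to 1.92 that held the central 95% of olfactory receptor genes in that comparison. A value under background on such an array does not show that a transcript is absent.

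The 3 clusters with several symbols were dim. The cluster listed as REG4 and NBPF7P was at 42.8 in treated HT-29 cells, 13.4 in MDA-MB-436 and 10.7 in MCF10A, at least 1.43-fold higher in treated HT-29 cells than in either mammary line. A cluster that lists DUOX1 and then DUOX2 was at 30.9 in treated HT-29 cells, 19.3 in MDA-MB-436 and 78.8 in MCF10A, so that its highest value was in MCF10A. Another, listing DUOX2 and then DUOX1, was at 11.1, 9.07 and 11.2, under background throughout. The annotation does not say which of the 2 oxidase genes each cluster reads, but neither cluster was above 30.9 in treated HT-29 cells or above the highest olfactory receptor value of 101 on any array. Of the genes next to DUOX2 and DUOXA2 on chromosome 15, TERB2 was under background on all 3 arrays, and SORD, DUOXA1 and DUOX1 had no cluster of their own.

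The pattern of LYZ, LCN2 and PIGR was set beside that of all 1926 genes past 4-fold in at least 1 comparison, as the distance between the pairs of log2 differences from MCF10A with values under background set to it. For LYZ the nearest genes were KLK6, a kallikrein-related peptidase gene, at a distance of 0.46, GPX2, a glutathione peroxidase gene, at 0.46, and the class II antigen presentation gene HLA-DPA1, at 0.50. For LCN2 they were PAPSS2, which encodes an enzyme that makes the sulfate donor, at 0.32, CHAC1, which encodes an enzyme that degrades glutathione, at 0.35, and the interferon-stimulated gene SAMD9L, at 0.37. For PIGR they were the gluconeogenic gene FBP1 at 0.013, the apolipoprotein L gene APOL3 at 0.013 and ZG16B, which encodes a secreted lectin, at 0.021. Genes under background in both mammary lines are ordered here by the HT-29 value alone, and a likeness over 3 arrays describes these arrays only.

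**Figure D2:**
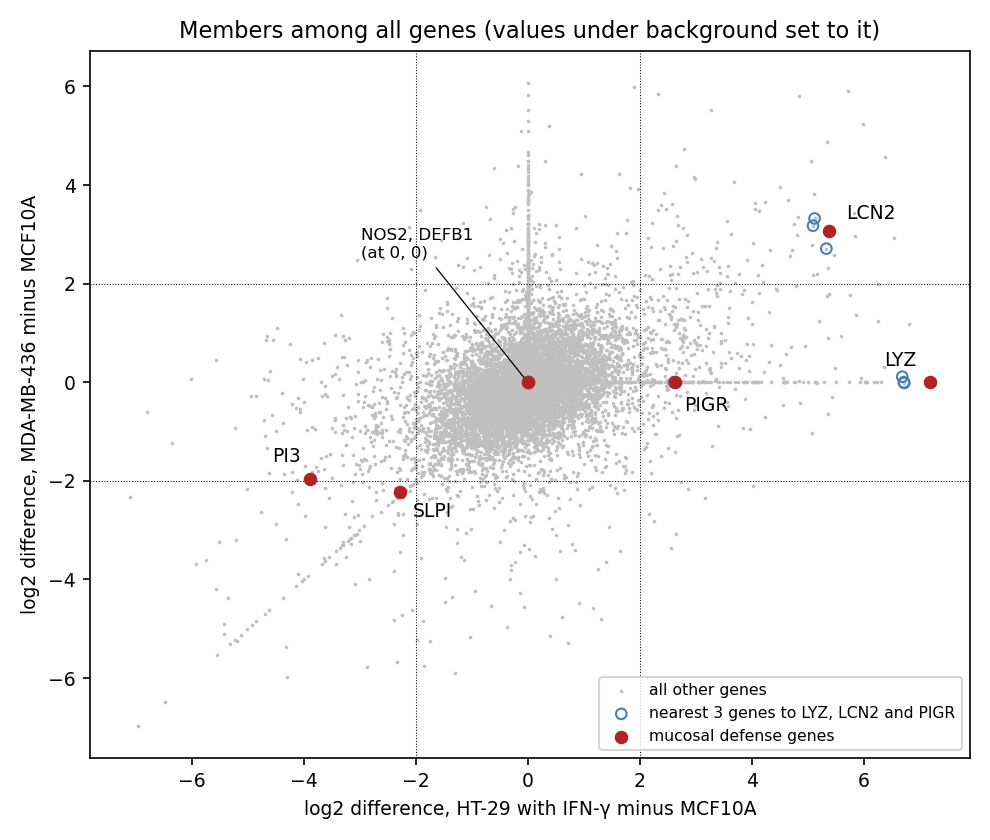
Log2 difference of MDA-MB-436 minus MCF10A against that of treated HT-29 minus MCF10A for all 14410 genes, 1 point per gene, with values under background set to it and dotted lines at 4-fold. The 7 members are filled circles, of which LYZ is furthest to the right, LCN2 is high on both axes, SLPI and PI3 are low on both and NOS2 and DEFB1 lie at the origin; open circles are the 3 genes nearest to each of LYZ, LCN2 and PIGR, those of PIGR being hidden under its point.

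Beside the 10 members, 164 other genes of mucosal defense were grouped into 10 lists, and 134 of them had a cluster of their own. Of these 134, 52 were under background on all 3 arrays, where 25.7% of all genes were. Against MDA-MB-436, 18 (13.4%) were past 4-fold higher in treated HT-29 cells and 8 (5.97%) lower, beside the 4.21% and 4.69% of all genes. Against MCF10A, 15 (11.2%) were higher in treated HT-29 cells and 10 (7.46%) lower, beside 4.34% and 3.5%. In MDA-MB-436 against MCF10A, 6 (4.48%) were higher and 6 (4.48%) lower, beside 3.66% and 2.01%. With values under background set to it, 20, 21 and 8 listed genes passed 4-fold in either direction, in place of 26, 25 and 12. Over all genes, 973, 892 and 553 passed in that setting, in place of 1283, 1130 and 817. The shares of all genes given here also stand beside the counts of each single list below. Beside the list medians stand the median log2 differences of all genes, 0.076, 0.11 and 0.018 in these 3 comparisons. The lists were drawn up with earlier results of these data known.

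**Figure D3:**
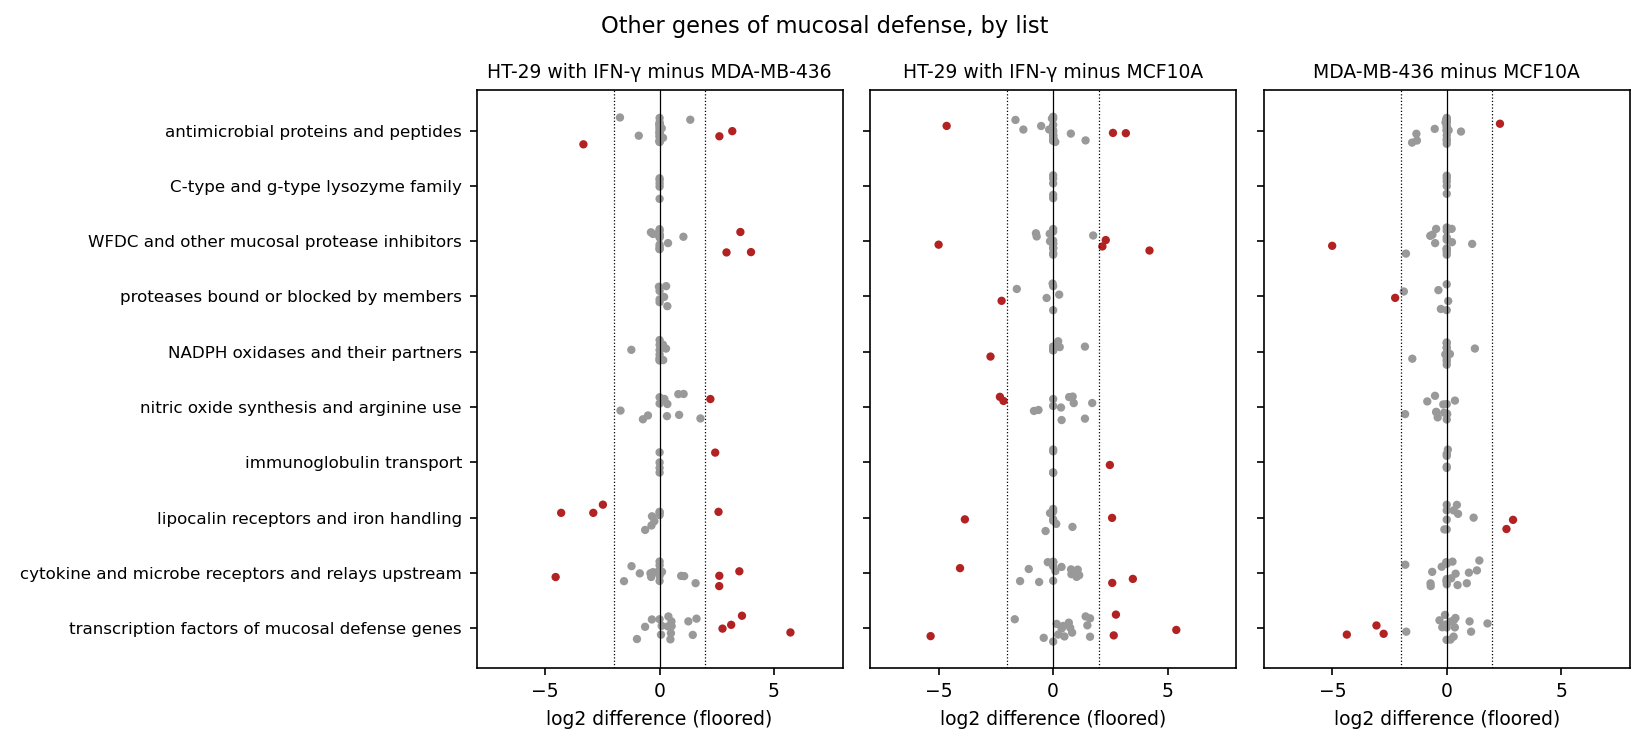
Log2 difference of the 134 measured genes of the 10 lists in the 3 comparisons, 1 point per gene and list, with values under background set to it, so that genes under background on both arrays lie at 0. Points past 4-fold on this scale (dotted lines) are red and others grey, so genes counted from their measured values whose bound is under 4-fold, such as SLC7A7, are grey; the vertical position within a list has no meaning. In treated HT-29 minus MCF10A, points past 4-fold lie on both sides in some lists, such as the antimicrobial proteins. The lysozyme family lies at 0 throughout.

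Of 25 other antimicrobial proteins measured, 3 were past 4-fold higher and 2 lower in treated HT-29 cells than in MDA-MB-436 (median log2 difference 0.19). Against MCF10A, 2 were higher and 1 lower in treated HT-29 cells (0.16), and 1 was higher and 1 lower in MDA-MB-436 cells (-0.11). PLA2G2A, a secreted phospholipase that attacks bacterial membranes, was at 270.1 in treated HT-29 cells, 15.7 in MDA-MB-436 and 16.9 in MCF10A, at least 9.04-fold higher in treated HT-29 cells than in either mammary line. ZG16B was at 183, 15.01 and 29.7, at least 6.12-fold higher in treated HT-29 cells than in either. S100A8, a subunit of the metal-binding protein calprotectin, went the other way, at 9.29 in treated HT-29 cells, 300.3 in MDA-MB-436 and 753 in MCF10A, lower by at least 10.1-fold and at least 25.2-fold in treated HT-29 cells. CCL28, an epithelial chemokine with antimicrobial activity, was at 75.7, 11.3 and 85.4, low in MDA-MB-436 alone. CCL20, another such chemokine, was at 96.1, 181 and 36.0, with MDA-MB-436 5.02-fold above MCF10A. The cathelicidin gene CAMP was at 324, 292 and 190, above background on every array and less than 4-fold apart in each comparison. The lectin gene REG1A was at 31.9, 25.2 and 21.0. The lactoferrin gene LTF and the lectin gene REG3A were among the 14 genes of this list under background on all 3 arrays.

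Other mucosal protease inhibitors had genes with their highest value in HT-29 and genes with their highest value in MCF10A. Of 18 measured, 3 were past 4-fold higher and 0 lower in treated HT-29 cells than in MDA-MB-436 (median log2 difference 0.35). Against MCF10A, 3 were higher and 1 lower in treated HT-29 cells (0.12), and 1 was higher and 1 lower in MDA-MB-436 cells (-0.30). WFDC2, a relative of SLPI and PI3 with the same fold, was at 227 in treated HT-29 cells, 19.6 in MDA-MB-436 and 46.1 in MCF10A. It was therefore 4.92-fold higher in treated HT-29 cells than in MCF10A, on the opposite side to SLPI and PI3. SPINK1, a trypsin inhibitor gene, was at 553, 34.7 and 6.53, at least 18.5-fold higher in treated HT-29 cells than in MCF10A. SERPINB1, an inhibitor of neutrophil proteases, was at 1728, 149.5 and 514, 11.6-fold higher in treated HT-29 cells than in MDA-MB-436. The cysteine protease inhibitor gene CSTA had the MCF10A pattern, at 17.4, 15.9 and 961, at least 32.2-fold lower in each cancer line than in MCF10A.

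Of 7 measured genes on the list of proteases that members bind or block, which includes AZU1, 1 was past 4-fold. The medians of this list were 0.29, -0.29 and -0.36 on the log2 scale for treated HT-29 minus MDA-MB-436, treated HT-29 minus MCF10A and MDA-MB-436 minus MCF10A. KLK7, a kallikrein-related peptidase of the skin, was at 18.8 in treated HT-29 cells, 11.1 in MDA-MB-436 and 142.5 in MCF10A, at least 4.77-fold lower in each cancer line than in MCF10A. ELANE, the neutrophil elastase gene and a main target of SLPI and elafin, was at 73.7, 75.2 and 89.9, under the highest olfactory receptor value on every array. LYZ is also a protein of neutrophils and monocytes, and LCN2 a granule protein of neutrophils. Of 12 measured markers of those cells, 5 were above background in treated HT-29 cells, 7 in MDA-MB-436 and 7 in MCF10A. Over all genes, 66.6%, 68.8% and 65.0% were above it on these arrays, a share that also stands beside the Paneth and lymphoid counts below. The summed intensities of the 12 markers were 651, 1037 and 1450.4, with S100A8 the highest in MCF10A at 753. The part of these markers in the results was not tested. CD14, a monocyte receptor gene, was at 38.9, 86.5 and 156, and CAMP, ELANE, PRTN3 and AZU1 were also above background on every array. PTPRC, CSF1R, MPO, LTF and S100A12 were under it on all 3 arrays, and S100A8 and S100A9 in treated HT-29 cells alone. Of 7 measured Paneth cell markers, which include PLA2G2A, 3 were above background in treated HT-29 cells, 2 in MDA-MB-436 and 1 in MCF10A, with summed intensities of 917, 258 and 131, and the defensin genes DEFA5 and DEFA6 were under it on all 3 arrays. Of 6 measured lymphoid markers, 2, 2 and 1 were above background, with summed intensities of 146, 109 and 88.0.

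Of 13 measured genes of nitric oxide synthesis and arginine use, NOS1 and 1 other were under background on all 3 arrays, like NOS2 itself. In this list 2 were past 4-fold higher and 0 lower in treated HT-29 cells than in MDA-MB-436 (median log2 difference 0.34). Against MCF10A, 1 was higher and 2 lower in treated HT-29 cells (0.37), and 0 were past 4-fold in MDA-MB-436 cells (-0.38). GCH1, which makes the first step of the synthase cofactor tetrahydrobiopterin, was at 289 in treated HT-29 cells, 62.0 in MDA-MB-436 and 88.5 in MCF10A, 4.66-fold and 3.26-fold higher in treated HT-29 cells. QDPR, which recycles the cofactor's oxidised form, was at 55.0, 179.7 and 248, 4.51-fold lower in treated HT-29 cells than in MCF10A. The arginine transporter gene SLC7A2 was at 87.7, 125 and 441, 5.02-fold lower in treated HT-29 cells than in MCF10A, and the transporter subunit gene SLC7A7 at 53.9, 7.39 and 5.50, at least 1.81-fold higher in treated HT-29 cells than in either mammary line. NOS1 was under background on every array, and NOS3 was at 44.8, 35.8 and 35.4.

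Of 11 measured genes on the list of NADPH oxidases and their partners, 7 were under background on all 3 arrays. Over all genes this share was 25.7%. None of these 11 was past 4-fold between treated HT-29 cells and MDA-MB-436. Against MCF10A, 1 was higher and 1 lower in treated HT-29 cells, and 1 was higher and 0 lower in MDA-MB-436. These counts leave out NOX1, because its cluster also carries the symbol HNRNPA1P27. The shared cluster read 841 in treated HT-29 cells against 4.10 in MDA-MB-436 and 4.13 in MCF10A, as given under Other observations. CYBA, the membrane subunit shared by several oxidases, was at 78.2 in treated HT-29 cells, 70.1 in MDA-MB-436 and 16.5 in MCF10A, so that treated HT-29 cells lay at least 2.62-fold and MDA-MB-436 at least 2.35-fold above MCF10A. RAC2, a small GTPase of the oxidase of phagocytes, was at 185.5, 437 and 1239, 6.68-fold lower in treated HT-29 cells than in MCF10A. The median log2 differences of the list were 0.28, 0.39 and 0.089 for treated HT-29 minus MDA-MB-436, treated HT-29 minus MCF10A and MDA-MB-436 minus MCF10A.

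LCN2 acts on iron, and of 11 measured genes of lipocalin receptors and iron handling, 1 was at least 4-fold higher and 3 lower in treated HT-29 cells than in MDA-MB-436 (median log2 difference -0.33). Against MCF10A, 1 was higher and 1 lower in treated HT-29 cells (-0.055), and in MDA-MB-436 against MCF10A 2 were higher and 0 lower (0.44). SLC22A17, a proposed receptor of lipocalin 2, was at 74.2 in treated HT-29 cells, 414 in MDA-MB-436 and 67.7 in MCF10A, 5.57-fold lower in treated HT-29 cells than in MDA-MB-436 and 6.11-fold higher in MDA-MB-436 cells than in MCF10A. SLC40A1, which encodes the iron exporter ferroportin, was at 178, 13.0 and 6.35, at least 5.96-fold higher in treated HT-29 cells than in either mammary line. CYBRD1, a ferric reductase gene of the cell surface, was at 29.6, 589.5 and 433, lower by at least 19.7-fold and at least 14.5-fold in treated HT-29 cells than in MDA-MB-436 and MCF10A. HMOX1, which encodes the heme oxygenase that frees iron from heme, was at 25.6, 223 and 23.3, with MDA-MB-436 at least 7.46-fold above both others.

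Another list held receptors and relays of the cytokines and microbes that act upstream of such genes. Of 20 measured, 3 were past 4-fold higher and 3 lower in treated HT-29 cells than in MDA-MB-436 (median log2 difference -0.33). Against MCF10A, 3 were higher and 2 lower in treated HT-29 cells (0.23). In MDA-MB-436 against MCF10A, 1 was higher and 0 lower (0.087). IL22RA1, a receptor chain for interleukin 22, was at 335 in treated HT-29 cells, 26.3 in MDA-MB-436 and 29.9 in MCF10A, at least 11.2-fold higher in treated HT-29 cells than in MDA-MB-436. RIPK2, the kinase downstream of the NOD receptors, was at 1469, 240.5 and 844, 6.11-fold higher in treated HT-29 cells than in MDA-MB-436. OSMR, the oncostatin M receptor gene, was at 8.60, 697 and 502, lower by at least 23.3-fold and at least 16.8-fold in treated HT-29 cells than in MDA-MB-436 and MCF10A. TLR6, a receptor for bacterial lipopeptides, was at 10.6, 69.9 and 81.3, lower by at least 2.34-fold and at least 2.72-fold in treated HT-29 cells.

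Of 19 measured transcription factors of mucosal defense genes, 5 were past 4-fold higher and 0 lower in treated HT-29 cells than in MDA-MB-436. The median log2 difference was 0.50. Against MCF10A, 3 were higher and 1 lower in treated HT-29 cells (0.68), and 0 were higher and 3 lower in MDA-MB-436 cells (0.050). IRF1, a factor induced by IFN-γ, was at 3961 in treated HT-29 cells, 326 in MDA-MB-436 and 94.9 in MCF10A. EHF, an epithelial ETS factor, was at 1574, 27.8 and 251, at least 52.7-fold higher in treated HT-29 cells than in MDA-MB-436 and 6.27-fold higher than in MCF10A. KLF5, a factor of proliferating epithelium, was at 2180.4, 249 and 1686, 8.75-fold higher in treated HT-29 cells than in MDA-MB-436 and 6.76-fold lower in MDA-MB-436 cells than in MCF10A. TFCP2L1 was at 36.9, 73.3 and 1512, 41.0-fold lower in treated HT-29 cells and 20.6-fold lower in MDA-MB-436 cells than in MCF10A. Binding of these factors to the members' promoters was not measured.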

How the data were processed

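The deposited table holds intensity values on a linear scale, as the values show, 1 for each of 18708 transcript clusters and 3 arrays; summary, background correction and normalization are not given in the sources used here, and the submitters' processing notes list the build hg19. Array medians were 75.9 in treated HT-29 cells, 81.0 in MDA-MB-436 and 75.1 in MCF10A. Of the clusters, 14733 carried 1 symbol in the platform annotation, 14705 of them matched to RefSeq by gene identifier, 2875 carried several and were not named as a gene, and 1100 carried none here. The cluster with the highest mean stood for a gene with several; each member had 1. Intensities were log2 transformed as deposited. The members and all lists were chosen with earlier results of these data known. Named genes were all members, up to 4 genes per list with the largest measured difference past 4-fold, the nearest relatives of members, the 3 genes most alike in pattern and the neighbouring genes; FCGRT, also named, had no cluster of its own. JCHAIN, ELANE, CAMP, CCL20 and the single marker genes were named outside that rule, after their values were seen. Related genes can share probe signal. The number of arrays limits the precision. Alternatives were quantile normalization, median centring, no background filter, the 99th percentile as background, folds of 2 and 8, the median over clusters and values under background set to it. The counting step was tested on simulated 8-fold changes in genes above 4 times the background. Counting of changes near the background or near 4-fold was not tested. Python 3.11.15, pandas 2.3.3, numpy 2.4.6 and, for plots, matplotlib 3.10.9 served.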

Additional observations from a re-analysis of the deposited data

How the results depend on the processing

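LYZ, LCN2 and PIGR were past 4-fold higher in treated HT-29 cells than in each mammary line under every scaling alternative run. They also passed with values under background set to it. The settings without a filter and with the 99th percentile of 59.9 could not change this. The background filters only the brighter array, and these genes were above 59.9 in treated HT-29 cells. Values were set to the background only at the 95th percentile. Against a floor of 59.9 the bound of PIGR, at 185 in treated HT-29 cells, would be under 4-fold. At a fold of 8 LCN2 no longer passed against MDA-MB-436. Its log2 difference in that comparison was 2.05 after quantile normalization, just past 4-fold. With values under background set to it, the log2 difference of LYZ was 7.18 and that of PIGR 2.63 in both comparisons, and that of DEFB1 against MDA-MB-436 was 0, because values under background lose their order. The members near 4-fold changed sides. After quantile normalization PI3 reached -2.003 in treated HT-29 minus MDA-MB-436, which gave 1 lower member, and SLPI was at -1.94 in MDA-MB-436 minus MCF10A, which gave 0. With median centring PI3 was at -2.07 in MDA-MB-436 minus MCF10A, which gave 2. At a fold of 2 the lower members were 1 in treated HT-29 minus MDA-MB-436 and 2 in MDA-MB-436 minus MCF10A, and at a fold of 8 they were 1 in treated HT-29 minus MCF10A and 0 in MDA-MB-436 minus MCF10A. Over all genes, 3241, 2921 and 2522 passed a fold of 2 and 623, 569 and 373 a fold of 8 in treated HT-29 minus MDA-MB-436, treated HT-29 minus MCF10A and MDA-MB-436 minus MCF10A. Of the listed genes, 43 and 29 passed a fold of 2 in the comparisons with MCF10A, of treated HT-29 cells and of MDA-MB-436, and 14, 11 and 5 a fold of 8 in the 3 comparisons. Fewer genes pass a higher fold by construction. Of 30 list medians, 6 turned sign with quantile normalization and 4 with median centring, and 0 moved by over 1.5-fold. The median of all genes in treated HT-29 minus MCF10A was 0.11 as deposited and -0.011 after quantile normalization, and in MDA-MB-436 minus MCF10A it was 0.018 as deposited and -0.091 after centring. No paired analysis was possible because each group had 1 array.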

Other observations

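Some genes of mucosal defense were listed only on clusters with several symbols and entered no count above. The cluster listed as NOX1 and HNRNPA1P27 was at 841 in treated HT-29 cells, 4.10 in MDA-MB-436 and 4.13 in MCF10A, at least 28.2-fold higher in treated HT-29 cells than in either mammary line. NOX1 encodes the superoxide-producing oxidase of colon epithelium; the annotation does not say how much of this cluster's signal comes from each symbol. Another cluster, with SERPINA1 and SERPINA2, was at 1359 in treated HT-29 cells, 52.8 in MDA-MB-436 and 44.6 in MCF10A, 25.7-fold and 30.5-fold higher in treated HT-29 cells. SERPINA1 encodes alpha-1-antitrypsin, an inhibitor of neutrophil elastase as SLPI and elafin are.

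A cluster with NFKBIZ and NXPE3 was at 433 in treated HT-29 cells, 194 in MDA-MB-436 and 59.9 in MCF10A. NFKBIZ encodes a nuclear cofactor of NF-kappaB. The cluster listed as FCGRT and PRR12, of which FCGRT encodes the neonatal Fc receptor, was at 125, 46.0 and 37.2. These clusters were picked after their values were seen.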
